A study of Mus musculus with 6 samples.

Results

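Malat1, Neat1, Meg3, Rian, Mirg and Airn are long noncoding RNAs that stay largely in the nucleus. Their signal was measured in mouse prostate by 31 of the 45037 probe sets of an Affymetrix array, those whose platform annotation gives 1 gene symbol and that symbol among the 6 names. Malat1 had 7 probe sets, Neat1 2, Meg3 11, Rian 4, Mirg 2 and Airn 5, and 1 further probe set annotated to both Airn and Igf2r was left out. The treated animals were TRAMP mice gavaged with OSU-CG5, an agent described by the submitters as mimicking energy restriction, at 100 mg/kg per day for 4 weeks. The controls were TRAMP mice gavaged with vehicle over the same weeks. All 6 mice were intact males of a (C57BL/6 TRAMP x FvB) F1 cross, dosed from week 6 to week 10 of life, and there were 3 mice per group with 1 array each. TRAMP mice carry SV40 early genes under the probasin promoter, which drives them in prostate epithelium, so treated mice and controls alike carry these oncogenes. The tissue was the dorsal and lateral lobes, freed by microdissection and removed 2 to 4 h after the final dose. The 6 genes were chosen with the OSU-CG5 minus vehicle differences already known, so those differences describe these arrays. Counts of members past a limma threshold are printed only beside the share of all probe sets past it, and are no test of the members.

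Most protein-coding transcripts are exported to the cytoplasm once spliced, whereas these RNAs remain near the chromatin or in nuclear bodies. Malat1 is an abundant transcript of nuclear speckles, where splicing factors gather. Neat1, its neighbour on chromosome 19, is the scaffold around which paraspeckles form and has a short and a long form. Meg3, Rian and Mirg are transcribed from the maternal copy of the imprinted Dlk1-Dio3 domain on chromosome 12, where Rian carries small nucleolar RNAs and Mirg carries microRNAs. Airn, on chromosome 17, is transcribed from the paternal copy antisense to Igf2r and silences Igf2r on that copy in most mouse tissues.

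Start regions are shown for Malat1, whose probe sets read higher with OSU-CG5, and for Meg3, most of whose probe sets did not. RefSeq start regions, 250 bases before to 50 after a start in build GRCm38.p6, were at hand for 5 of the 6 genes, all but Neat1. The sequences run 5′ to 3′ on the strand of the gene. Capitals mark TGACG, the core of the cAMP response element, on either strand, a motif picked for display after the sequences had been looked at. The Malat1 region lies at chr19:5802623-5802922 on the minus strand, and the region of the first Meg3 start lies at chr12:109540746-109541045 on the plus strand.
Malat1: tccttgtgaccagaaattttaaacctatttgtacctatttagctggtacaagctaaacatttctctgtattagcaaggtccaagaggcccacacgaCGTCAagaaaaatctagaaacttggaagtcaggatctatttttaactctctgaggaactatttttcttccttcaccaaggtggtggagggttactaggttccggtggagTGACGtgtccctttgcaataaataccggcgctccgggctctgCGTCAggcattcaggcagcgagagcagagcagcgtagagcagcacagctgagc
Meg3: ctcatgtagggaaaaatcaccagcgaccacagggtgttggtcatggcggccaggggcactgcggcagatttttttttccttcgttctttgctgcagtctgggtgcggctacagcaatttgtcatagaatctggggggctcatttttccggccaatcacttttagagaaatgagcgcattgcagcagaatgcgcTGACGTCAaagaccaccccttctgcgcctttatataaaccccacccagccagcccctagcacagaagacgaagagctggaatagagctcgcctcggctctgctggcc
TGACG occurred 3 times in the Malat1 region, with first bases 154, 45 and 3 bases before the start, so the last match runs across it. In the Meg3 region its 2 matches, at 57 and 54 bases, overlap on opposite strands in a single palindrome. The motif was found in 20.8% of the 32851 start regions of the same length, 2 or more matches in 5.01% and 3 or more in 1.03%. These letters were not present in the start regions of Airn, Rian and Mirg or in that of the second Meg3 start. The Meg3 region also held CCAAT at 100 bases and TATAAA at 29 and 25 bases before the start, the TATAAA matches overlapping on opposite strands. Of all regions 37.4% held CCAAT, and the TATA box letters were held by 13.6%. The GC box GGGCGG, present in 35.7% of all regions, was found only before Airn among the 5 genes, at 11 bases. All 6 motifs were searched on both strands. TATAAA also lay 132 bases before Airn, and CCAAT 184 bases before Mirg. The E-box CACGTG (7.15% of all regions) and the forkhead site GTAAACA (3.65%) matched in none of these regions. These matches describe the sequence only.

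The values are log2 expression after RMA, the authors' normalization, and array medians lay between 5.30 and 5.38. Vehicle replicate 2 stood apart, with Pearson correlations of 0.966 to 0.981 with the other arrays over all probe sets, and 6 seminal vesicle secretion genes averaged 7.91 on it against 3.56 to 5.08 on the other 5. The differences that the account turns on are therefore also given without that array. Of 12 prostate luminal marker genes fixed for the tissue, 9 were measured, with a mean signal of 11.80 to 12.07 on the OSU-CG5 arrays and 11.80 to 11.90 on the vehicle arrays. No probe set of the 45037 passed limma's test at an adjusted p of 0.05 with all 6 arrays, 0% of those tested, and thus none of the 31 members. The number of arrays limits the precision.

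Malat1 read higher with OSU-CG5 in all 7 probe sets, with log2 differences of 0.34 to 1.46 and a median of 1.06, or 0.60 without vehicle replicate 2, although the dimmest, 1427285_s_at, turned to -0.15 under another scaling described with the array measures. Its brightest probe set, 1418189_s_at, read 10.21, 11.39 and 11.28 on the OSU-CG5 arrays, against 9.60, 8.44 and 10.46 on the vehicle arrays. These means of 10.96 ± 0.65 with OSU-CG5 and 9.50 ± 1.01 in vehicle (SD, n = 3 each) differed by 1.46 (SE 0.49), a 2.74-fold difference, but the groups overlapped, since OSU-CG5 replicate 1 lay below vehicle replicate 3. Without vehicle replicate 2 the difference was 0.93. Beside the signs counted here and for the other genes, 39.5% of all probe sets lay above 0. As the tissue is a mixture of cell types, a changed share of a cell type and a changed amount of RNA per cell cannot be told apart here.

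The groups did not overlap for 4 Malat1 probe sets, beside 11.7% of all probe sets apart and higher. 1436202_at read 9.66, 9.72 and 9.60 with OSU-CG5, against 9.10, 7.68 and 9.04 in vehicle, a difference of 1.06 (SE 0.34), or 0.60 without vehicle replicate 2. 1429060_at read 10.03, 10.44 and 10.32 with OSU-CG5, against 9.59, 7.21 and 9.75 in vehicle, a difference of 1.41 (SE 0.58), or 0.59 without vehicle replicate 2. In both probe sets the OSU-CG5 arrays stood close together and above vehicle replicates 1 and 3, with vehicle replicate 2 far below. 1418188_a_at read 8.84, 10.24 and 10.11 with OSU-CG5, against 8.57, 7.83 and 8.76 in vehicle, a difference of 1.34 (SE 0.38), or 1.06 without vehicle replicate 2. 1452378_at read 6.93, 7.60 and 7.50 with OSU-CG5, against 6.61, 5.91 and 6.82 in vehicle, a difference of 0.90 (SE 0.26), or 0.63 without vehicle replicate 2. In both, OSU-CG5 replicate 1 lay nearer to vehicle replicate 3 than to the other OSU-CG5 arrays.

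The remaining Malat1 probe sets, 1438403_s_at and 1427285_s_at, overlapped between groups. 1438403_s_at read 8.62, 9.37 and 9.30 with OSU-CG5, against 8.73, 7.70 and 8.93 in vehicle, a difference of 0.64 (SE 0.33), or 0.26 without vehicle replicate 2. 1427285_s_at read 5.53, 5.98 and 6.12 with OSU-CG5, against 5.58, 5.40 and 5.63 in vehicle, a difference of 0.34 (SE 0.17). It is annotated to the same source sequence, AW012617, as 1452378_at, and 1418188_a_at and 1418189_s_at share AF146523, so the 7 probe sets are not 7 separate readings.

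The treated mice themselves differed in Malat1, and by an amount that depended on the probe set. OSU-CG5 replicate 1 minus the mean of replicates 2 and 3 was -1.33 for 1418188_a_at, -1.13 for 1418189_s_at, -0.72 for 1438403_s_at, -0.63 for 1452378_at and -0.52 for 1427285_s_at. For 1429060_at it was -0.35 and for 1436202_at -0.004. The first 5 thus placed this mouse below the other treated mice, and 1436202_at placed it level with them. The lowest array was vehicle replicate 2 in all 7 probe sets, by 0.21 to 2.46 below the mean of the other vehicle arrays.

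**Figure D1:**
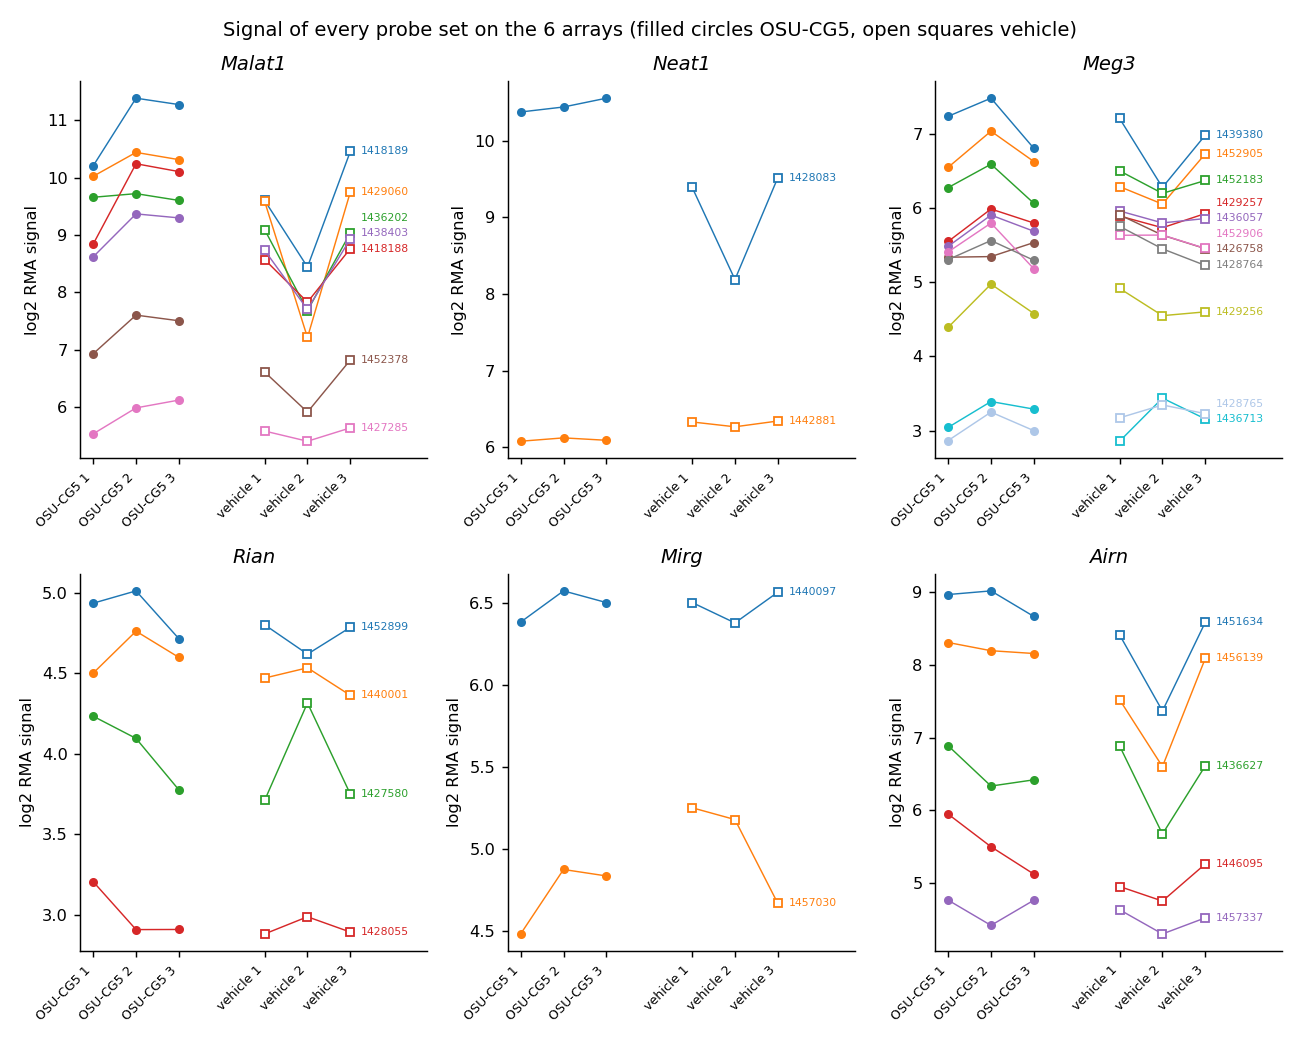
Log2 RMA signal (y axis) of all 31 probe sets on each array (x axis), a panel per gene, with filled circles for OSU-CG5 and open squares for vehicle. Lines join values of a probe set within a group, and the numbers are probe set identifiers without their suffix. Malat1 1418189_s_at spans 10.21 to 11.39 with OSU-CG5 and 8.44 to 10.46 in vehicle, while Neat1 1428083_at spans 10.37 to 10.55 with OSU-CG5 and 8.19 to 9.52 in vehicle.

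Neat1 was read by a pair of probe sets that differed in sign. 1428083_at read 10.37, 10.44 and 10.55 with OSU-CG5, against 9.39, 8.19 and 9.52 in vehicle. The treated arrays were close together and the lowest of them was 0.86 above the highest vehicle array, the widest such gap among the 31 probe sets. Means were 10.45 ± 0.09 with OSU-CG5 and 9.03 ± 0.73 in vehicle (SD, n = 3 each), a difference of 1.42 (SE 0.31) or 2.68-fold, and 1.0 without vehicle replicate 2. 1442881_at read 6.08, 6.12 and 6.09 with OSU-CG5, against 6.33, 6.27 and 6.34 in vehicle. It stood lower on every treated array, by 0.22 (SE 0.11), and by 0.24 without vehicle replicate 2. Among all probe sets 11.7% were apart and higher and 11.9% apart and lower. RefSeq lists 2 transcripts of Neat1, and which of them each probe set reads is not given in the sources used here.

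Airn, the antisense transcript of the Igf2r domain, read higher with OSU-CG5 in all 5 probe sets, with a median difference of 0.53 and a range of 0.16 to 0.82. Without vehicle replicate 2 the signs were 4 above 0 and 1 below, and the median was 0.38. Under the other scaling 3 lay above 0 and 2 below. 1451634_at read 8.97, 9.02 and 8.67 with OSU-CG5, against 8.42, 7.37 and 8.59 in vehicle, a difference of 0.76 (SE 0.29), or 0.38 without vehicle replicate 2. 1456139_at read 8.31, 8.20 and 8.16 with OSU-CG5, against 7.52, 6.60 and 8.09 in vehicle, a difference of 0.82 (SE 0.32), or 0.42 without vehicle replicate 2. In both of these the groups were apart, but by only 0.08 and 0.07 between the lowest treated and the highest vehicle array. Among all probe sets 39.5% lay above 0 and 11.7% were apart and higher.

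The other Airn probe sets overlapped between groups. 1446095_at read 5.95, 5.50 and 5.12 with OSU-CG5, against 4.95, 4.75 and 5.26 in vehicle, a difference of 0.53 (SE 0.22). 1436627_at differed by 0.16 (SE 0.30) with all arrays and by -0.20 without vehicle replicate 2, a change of sign. 1457337_at differed by 0.16 (SE 0.15). All 5 were lowest on vehicle replicate 2, as Malat1 was, but OSU-CG5 replicate 1, low in Malat1, stood 0.13 to 0.64 above the mean of the other treated arrays in Airn. Igf2r, the receptor gene that Airn overlaps, had 2 probe sets of its own. Igf2r 1424112_at read 9.23, 9.74 and 9.89 with OSU-CG5, against 9.16, 9.62 and 9.01 in vehicle, a difference of 0.36 (SE 0.21) with overlapping groups, or 0.53 without vehicle replicate 2, and 1424111_at differed by 0.03 (SE 0.18). The strand that the probes of Airn and Igf2r read is not given in the sources used here.

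Meg3 is the first of the noncoding transcripts along the Dlk1-Dio3 domain and is known as a growth-restraining RNA. Of its 11 probe sets 3 lay above 0 and 8 below, with a median difference of -0.07 and a range of -0.26 to 0.38, and all 11 overlapped between groups. 1439380_x_at read 7.24, 7.48 and 6.81 with OSU-CG5, against 7.21, 6.28 and 6.98 in vehicle, a difference of 0.35 (SE 0.26), or 0.08 without vehicle replicate 2. 1452905_at read 6.55, 7.04 and 6.63 with OSU-CG5, against 6.29, 6.05 and 6.73 in vehicle, a difference of 0.38 (SE 0.20), or 0.23 without vehicle replicate 2. Both were lowest on vehicle replicate 2. 1452183_a_at and 1426758_s_at, annotated to the Meg3 source sequence Y13832, differed by -0.05 (SE 0.16) and -0.26 (SE 0.15). The brightest Meg3 probe sets, 1439380_x_at and 1452905_at, thus lay above 0, and the next, 1452183_a_at, slightly below. Of the others, 1429257_at differed by -0.07 (SE 0.14), 1436057_at by -0.18 (SE 0.14), 1452906_at by -0.11 (SE 0.17) and 1428764_at by -0.09 (SE 0.16). The remaining 1429256_at differed by -0.04 (SE 0.18), 1436713_s_at by 0.09 (SE 0.17) and 1428765_at by -0.21 (SE 0.13). Each of these 7 differences was smaller than the range of readings among the treated arrays. 1452905_at, 1428764_at and 1428765_at are annotated to the same source sequence, AV015833, yet differ in sign. Under the other scaling all 11 lay below 0.

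Rian and Mirg lay further along the same domain. All 4 Rian probe sets read slightly higher with OSU-CG5, by 0.09 to 0.16, with every one overlapping vehicle, but all 4 lay below 0 under the other scaling and 3 of 4 stayed above 0 without OSU-CG5 replicate 1. Without vehicle replicate 2, 3 of the 4 no longer overlapped, beside 16.7% of all probe sets apart and higher. These 3 were apart by only 0.02 to 0.03. The brightest, 1452899_at, read 4.93, 5.01 and 4.71 with OSU-CG5, against 4.80, 4.62 and 4.78 in vehicle, a difference of 0.15 (SE 0.13). 1440001_at read 4.50, 4.76 and 4.60 with OSU-CG5, against 4.47, 4.53 and 4.36 in vehicle, a difference of 0.16 (SE 0.12). 1427580_a_at read 4.23, 4.10 and 3.78 with OSU-CG5, against 3.71, 4.32 and 3.75 in vehicle, a difference of 0.11 (SE 0.19), or 0.30 without vehicle replicate 2, here the highest array. The last Rian probe set, 1428055_at, differed by 0.09 (SE 0.13). Mirg 1440097_at read 6.39, 6.58 and 6.51 with OSU-CG5, against 6.51, 6.38 and 6.57 in vehicle, a difference of 0.00 (SE 0.12). Mirg 1457030_at read 4.48, 4.87 and 4.83 with OSU-CG5, against 5.25, 5.18 and 4.67 in vehicle, a difference of -0.30 (SE 0.19) with overlapping groups. Of the domain's protein-coding genes fixed for comparison only Dlk1, a growth regulator expressed from the paternal copy, was measured, and its 2 probe sets differed by -0.21 (SE 0.11), with the groups apart, and by -0.25 (SE 0.17), with the groups overlapping. Among all probe sets 11.9% were apart and lower. The values used here carry no detection calls, so whether the low readings of Rian, Mirg and Dlk1 lie above background is not known.

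**Figure D2:**
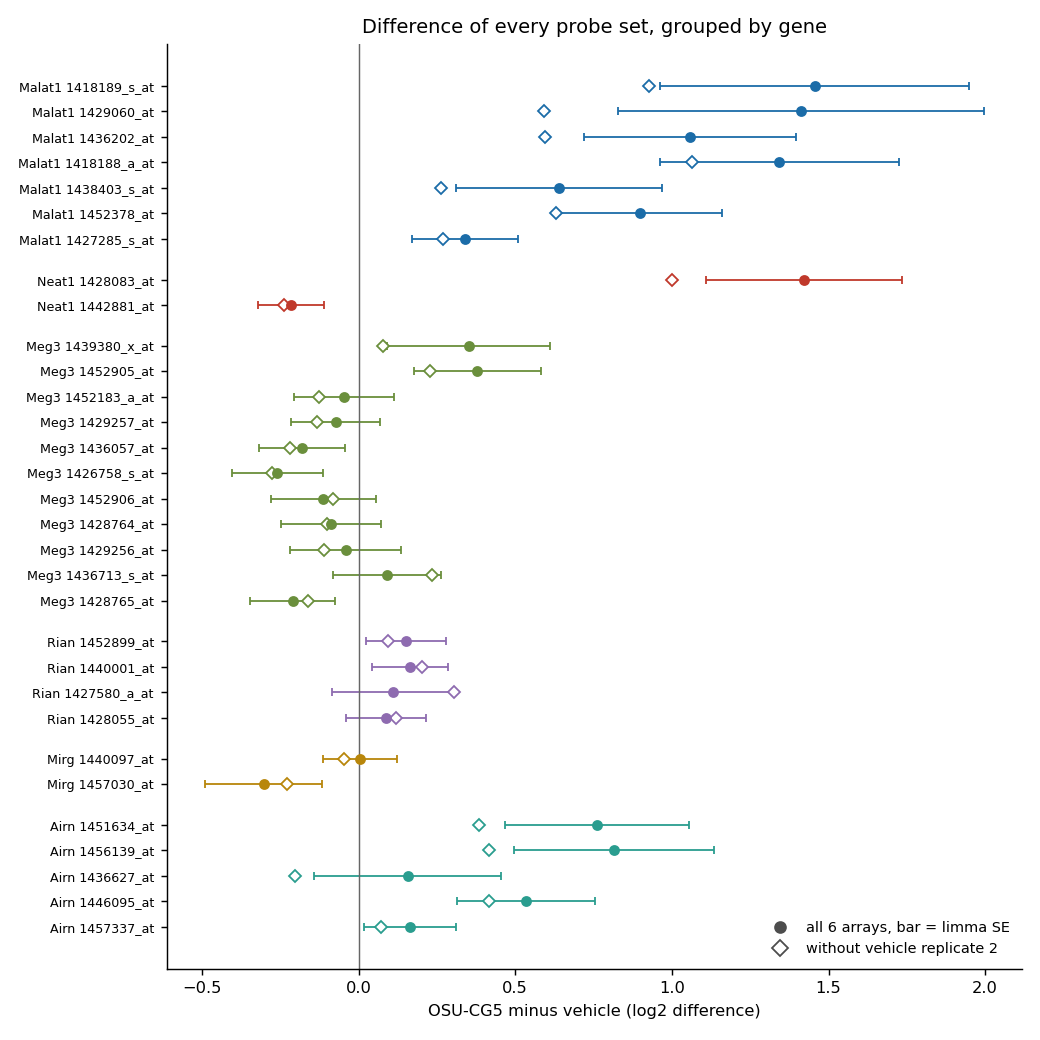
OSU-CG5 minus vehicle log2 difference (x axis) of the 31 probe sets, grouped by gene down the page; circles use all 6 arrays with bars of 1 limma SE, and open diamonds leave out vehicle replicate 2. Malat1 lies between 0.34 and 1.46 and stays above 0 without that array (1427285_s_at was -0.15 under the other scaling), Neat1 has a circle at 1.42 and another at -0.22, Airn 1436627_at changes sign, and Meg3, Rian and Mirg lie between -0.30 and 0.38.

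Counted over the 31 probe sets, 21 lay above 0, beside 39.5% of all probe sets, and the median difference was 0.16 beside -0.06 over all. At least 1.5-fold higher readings were found for 9 members, 6 of Malat1, 1 of Neat1 and 2 of Airn, beside 5.88% of all probe sets, and 0 were 1.5-fold lower, beside 0.5%. The groups were apart and higher with OSU-CG5 for 7 members, beside 11.7% of all probe sets, and apart and lower for 1, beside 11.9%. At limma's unadjusted p under 0.05 there were 9 higher members, beside 9.63%, and 0 lower, beside 6.8%. With an unadjusted p under 0.01 and at least 1.5-fold there were 3 higher, beside 2.93%, and 0 lower, beside 0.222%. Without vehicle replicate 2, 19 lay above 0 (beside 43.5%), 6 were at least 1.5-fold higher, 5 of Malat1 and 1 of Neat1 (beside 2.99%), 10 were apart and higher (beside 16.7%) and 1 apart and lower (beside 16%). Since these differences were known when the genes were chosen, the counts describe the members and support nothing further. The adjusted threshold counted 1 member without vehicle replicate 2, of Neat1 (beside 0.888% of all probe sets), 1 without vehicle replicate 3, of Neat1 (beside 1.97%), and 2 with array quality weights, of Neat1 and Malat1 (beside 1.83%). Neither an unmoderated linear model nor a robust, intensity-dependent prior gave a call, 0 in each.

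The higher readings lay among the brighter members. Of the 15 whose mean reached log2 6, 13 lay above 0, beside 51.8% of the 17617 such probe sets on the array, with a median of 0.76 beside 0.01. Of the 7 whose mean reached log2 8, which belong to Malat1, Neat1 and Airn, all lay above 0, beside 57.6% of 7064, with a median of 1.34 beside 0.04, and a median of 0.60 beside 0.06 without vehicle replicate 2. The smallest of the 7 members, Malat1 1438403_s_at, was 0.64, or 0.26 without vehicle replicate 2. With all arrays the difference was below 0.58 for 95% of those 7064 probe sets. The genes were chosen with these differences known, so this placing is a description and no support.

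**Figure D3:**
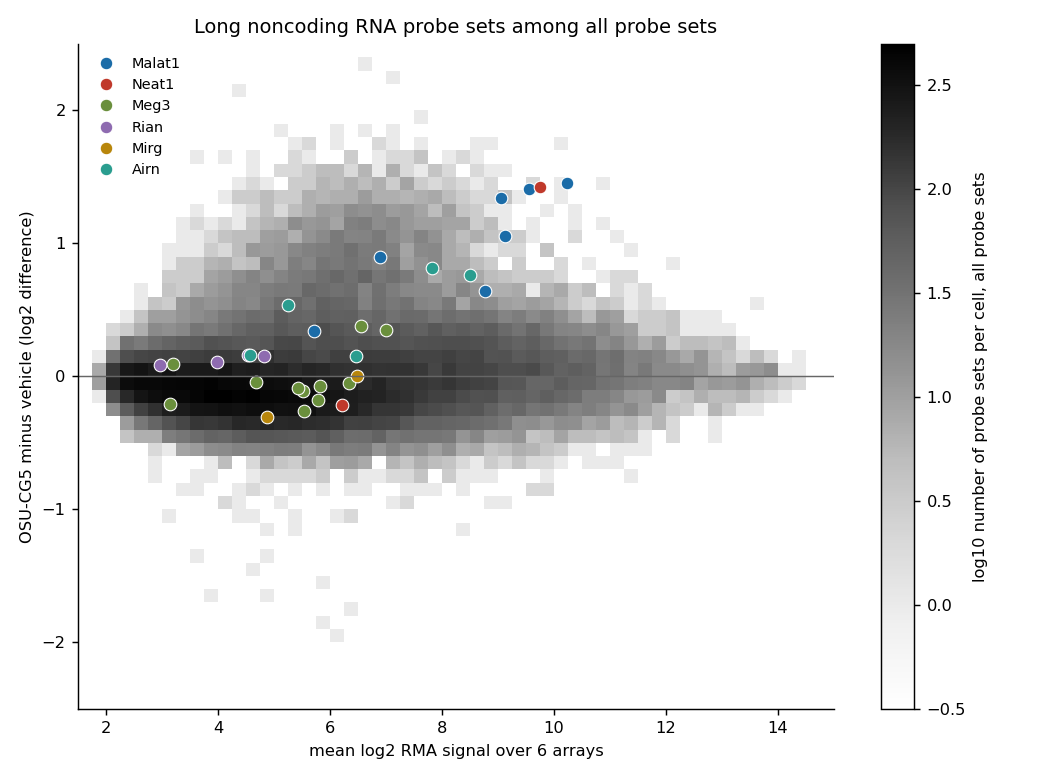
OSU-CG5 minus vehicle log2 difference (y axis) against mean log2 signal over 6 arrays (x axis); grey cells count all 45037 probe sets on a log10 scale and coloured points are the 31 members. The 7 members whose mean reaches log2 8 lie between 0.64 and 1.46, and the Meg3, Rian and Mirg points lie within the dark band around 0.

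Probe sets of Malat1 moved together across arrays, and those of the other genes did so less evenly. Over the 21 pairs of Malat1 probe sets Pearson's r across the 6 arrays was 0.67 to 0.99 with a median of 0.91. With group means removed, which takes out the treatment difference, it was 0.34 to 0.99 with a median of 0.85. Without vehicle replicate 2, and with group means left in, the median was 0.91. The Neat1 probe sets had r = -0.72 over the arrays and -0.98 without vehicle replicate 2, both with group means left in. Once group means were removed r was 0.87 over all 6 arrays, vehicle replicate 2 included. The 10 Airn pairs had a median r of 0.71 over 6 arrays and 0.13 without vehicle replicate 2, where 7 pairs were above 0. For Airn 1451634_at and 1456139_at r was 0.97 over 6 arrays and 0.81 without that array. The 55 Meg3 pairs ran from -0.69 to 0.89 with a median of 0.36, the 6 Rian pairs had a median of 0.30, and the Mirg pair had -0.02. These correlations describe 6 arrays that each enter every pair. Some pairs share a source sequence, and the part of that sharing was not tested.

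Between genes, Neat1 1428083_at correlated with the 7 Malat1 probe sets at 0.75 to 0.98 and Neat1 1442881_at at -0.64 to -0.38, with a median of 0.18 over the 14 pairs. Pairs of Malat1 and Airn probe sets had a median r of 0.64 and reached 0.98, and all 35 were above 0. The 77 pairs of Malat1 and Meg3 probe sets had a median of 0.08. The highest of these was 0.92, between Meg3 1452905_at and Malat1 1418189_s_at, both lowest on vehicle replicate 2.

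**Figure D4:**
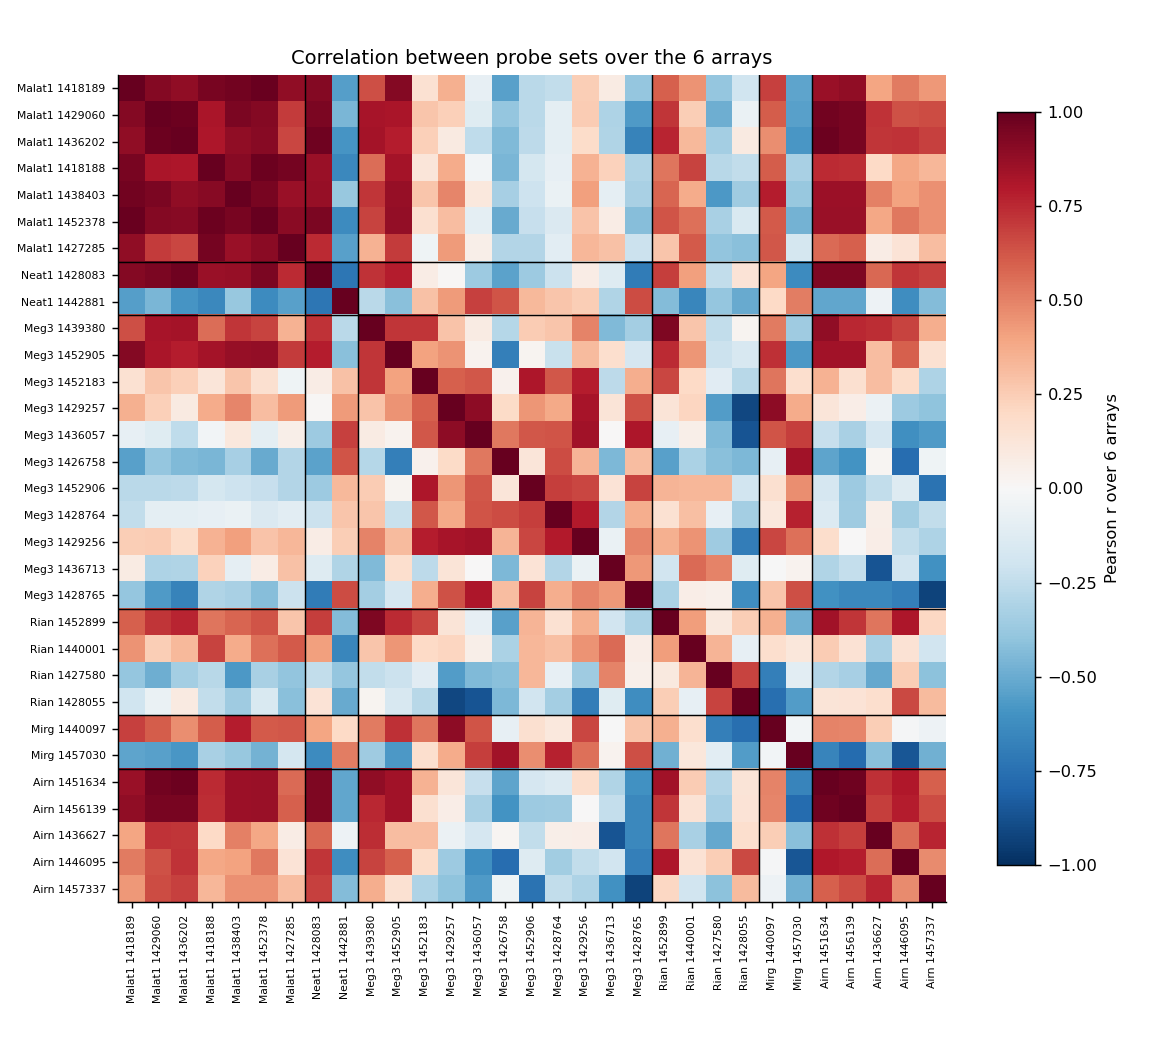
Pearson correlation over the 6 arrays between every pair of the 31 probe sets, ordered by gene and by mean signal, from -1 (blue) to 1 (red). The Malat1 block runs from 0.67 to 0.99 and extends to Neat1 1428083_at and Airn, while the Meg3 block spans -0.69 to 0.89 and the 2 Neat1 probe sets stand at -0.72.

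Other nuclear noncoding RNAs, from a list of 19 names of which 13 were measured, held genes on both sides of 0. By the brightest probe set of each gene 9 lay above 0 and 4 below, beside 34.3% above 0 among all 18193 genes, with a median difference of 0.12 beside -0.09. Without vehicle replicate 2 these medians were 0.05 and -0.05. At an unadjusted p under 0.05 there were 3 higher, beside 5.4% of genes, and 1 lower, beside 8.43%. The further probe sets of these genes were named after their values were seen. Over all probe sets 39.5% lay above 0, 11.7% were apart and higher and 11.9% apart and lower. Kcnq1ot1 is the antisense RNA that silences genes of the Kcnq1 domain on the paternal copy. It had 6 of 6 probe sets above 0 and 5 apart from vehicle. Its 1457781_at read 7.67, 7.56 and 7.42 with OSU-CG5, against 6.54, 5.61 and 6.87 in vehicle, a difference of 1.21 (SE 0.29), or 0.84 without vehicle replicate 2. Firre, an X-linked RNA of nuclear organisation, had 4 of 4 probe sets above 0, all apart from vehicle, and its 1438916_x_at read 7.97, 8.16 and 7.92 with OSU-CG5, against 7.35, 5.32 and 7.61 in vehicle, a difference of 1.26 (SE 0.52), or 0.54 without vehicle replicate 2. Tug1 1415708_at read 10.50, 10.44 and 10.44 with OSU-CG5, against 10.07, 9.37 and 9.96 in vehicle, a difference of 0.66 (SE 0.18). Its other 2 probe sets differed by 0.35 (SE 0.40) and -0.12 (SE 0.14). Miat, the gene counted as lower, differed by -0.30 (SE 0.13) and -0.34 (SE 0.17). Jpx and Rmst also had every probe set below 0, at -0.21 to -0.11, with overlapping groups. Xist, which males hardly express, had 3 probe sets between -0.24 and -0.01, all overlapping, with 1436936_s_at at 6.35 to 6.53 in OSU-CG5 males and 6.48 to 7.08 in vehicle males.

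Exported noncoding RNAs, mostly hosts of small nucleolar RNAs, had 16 of 23 genes measured. Of these 11 lay above 0 and 5 below, beside 34.3% of all genes above 0. Their median of 0.18 was -0.01 without vehicle replicate 2. Counted by the same unadjusted threshold, 4 were higher, beside 5.4% of all genes, and 0 lower, beside 8.43%. Dancr differed by 0.53 (SE 0.16), Norad by 0.33 (SE 0.13), Snhg11 by 0.41 (SE 0.11) and Oip5os1 by 0.41 (SE 0.16), or 0.25 without vehicle replicate 2.

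Protein genes of the bodies that hold Malat1 and Neat1 were compared next. Beside the counts below, 34.3% of all 18193 genes lay above 0. At an unadjusted p under 0.05, 5.4% of all genes were higher and 8.43% lower. Of 19 measured nuclear speckle genes 16 lay above 0, with a median of 0.48, or 0.28 without vehicle replicate 2, and at an unadjusted p under 0.05 there were 8 higher and 1 lower. The splicing factor Srsf5 read 11.80, 11.95 and 11.94 with OSU-CG5, against 11.25, 10.41 and 11.17 in vehicle, a difference of 0.96 (SE 0.22). Srrm2, a large scaffold of speckles, differed by 0.73 (SE 0.20) and Srsf11 by 0.65 (SE 0.18), while Rnps1, of the exon junction complex, differed by -0.60 (SE 0.20), or -0.37 without vehicle replicate 2. Of 19 measured paraspeckle genes 10 lay above 0 and 9 below, with a median of 0.01, or 0.11 without vehicle replicate 2, and at an unadjusted p under 0.05 there were 6 higher and 1 lower. Among these the RNA-binding protein Taf15 differed by 1.05 (SE 0.23), Sfpq, a core protein of the paraspeckle, by 0.91 (SE 0.33), or 0.48 without vehicle replicate 2, Tardbp by 0.42 (SE 0.15) and Cpsf7 by 0.33 (SE 0.11). Genes of the nuclear RNA exosome, which degrades nuclear transcripts, had 14 of 17 above 0, a median of 0.13 and 2 higher at an unadjusted p under 0.05, Exosc10 at 0.39 (SE 0.13) and Zfc3h1 at 0.71 (SE 0.26), or 0.42 without vehicle replicate 2. No gene of these lists passed the adjusted threshold.

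Of 18 other imprinted genes measured, 5 lay above 0 and 13 below, beside 34.3% of all genes above 0. Their median was -0.13, or -0.04 without vehicle replicate 2. At an unadjusted p under 0.05 there were 0 higher, beside 5.4% of all genes, and 3 lower, beside 8.43%. Mest differed by -0.37 (SE 0.12), Phlda2 by -0.50 (SE 0.17), Ascl2 by -0.34 (SE 0.15) and Igf2 by -0.22 (SE 0.12). In the Airn domain, besides Igf2r, the genes Slc22a2, Plg and Mas1 differed by -0.01, 0.07 and -0.05, or by 0.09, 0.14 and -0.05 without vehicle replicate 2.

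One measure of the whole array was, like Malat1, lowest on vehicle replicate 2. The 3' minus 5' differences of control probe sets, which grow as RNA is less intact, were lowest on vehicle replicate 1. Over the probe sets whose mean reached log2 6, the median of those without a single gene symbol minus the median of those with one was -0.29, -0.16 and -0.29 on the OSU-CG5 arrays, against -0.54, -1.07 and -0.48 on the vehicle arrays. The mean over the 7 Malat1 probe sets was 8.54, 9.25 and 9.18 with OSU-CG5, against 8.25, 7.17 and 8.49 in vehicle, and was likewise lowest on vehicle replicate 2. The Gapdh control probe sets for the 3' and 5' ends, a sign of RNA integrity, differed by 2.72, 3.03 and 2.94 with OSU-CG5, against 2.15, 2.26 and 2.76 in vehicle, so the groups overlapped and vehicle replicate 1 was lowest. The Gapdh difference averaged 2.89 with OSU-CG5 and 2.39 in vehicle. Like the Malat1 mean, it was highest on OSU-CG5 replicate 2, and lower on OSU-CG5 replicate 1 than on the other treated arrays. For Actb that difference was 2.97 to 3.11 with OSU-CG5 and 2.91 to 3.15 in vehicle. The part of these measures in the noncoding RNA readings was not tested.

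Because of this shift, each array was also centred on the median of the probe sets without a single gene symbol, a scaling chosen after seeing the data. It moved the median difference of all probe sets to -0.55, from -0.06, and left 7.41% of all probe sets above 0. The member median then read -0.33 in place of 0.16, and 10 of 31 members lay above 0. Malat1 kept 6 of 7 probe sets above 0, at 0.15 to 0.97, and 1427285_s_at read -0.15. Neat1 1428083_at read 0.93 and Neat1 1442881_at read -0.70. Airn kept 3 of 5 above 0, at 0.05 to 0.33. All Meg3, Rian and Mirg probe sets lay below 0, between -0.79 and -0.11. With this scaling limma's adjusted p was under 0.05 for 11 members, 3 of Malat1, 2 of Neat1, 5 of Meg3 and 1 of Mirg, beside 46% of all probe sets. The direction of a small difference therefore depends on the scaling, whereas the order of the members does not change under a constant shift.

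**Figure D5:**
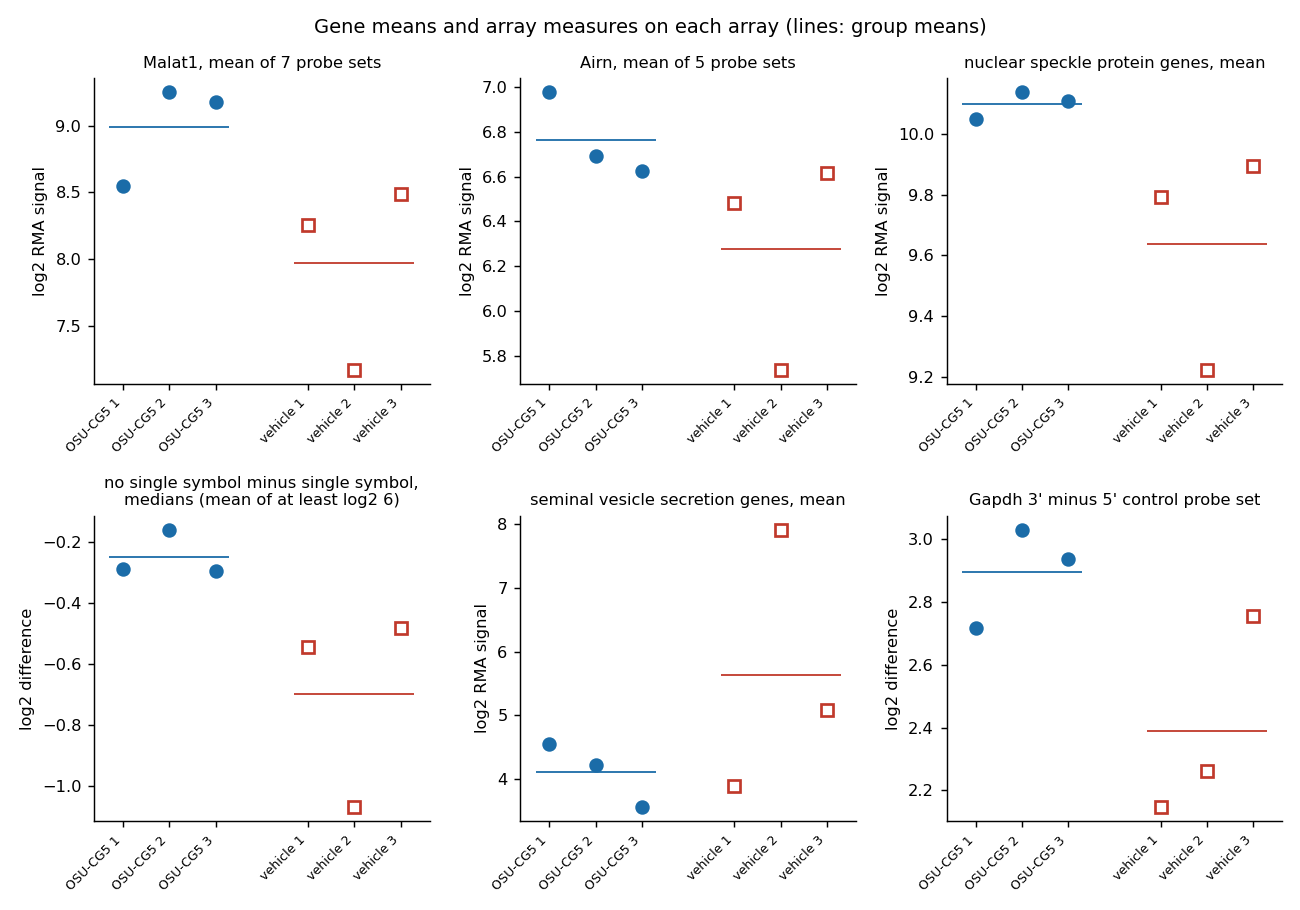
Values on each array (x axis, OSU-CG5 as blue circles and vehicle as red squares, lines at group means) of 4 mean log2 signals and 2 log2 differences. Vehicle replicate 2 is lowest for Malat1 (7.17), Airn (5.74), nuclear speckle genes (9.22) and the median of probe sets without a single symbol minus that of those with one (-1.07), and highest for seminal vesicle genes (7.91).

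Markers of other cells in the lobes mostly read lower with OSU-CG5, as did 11945 of all 18193 genes. All 10 skeletal muscle genes lay below 0, with a list mean of 4.59 to 5.22 on the OSU-CG5 arrays and 5.33 to 5.91 on the vehicle arrays. All 8 endothelial genes lay below 0 (5.12 to 5.25 with OSU-CG5, 5.45 to 5.68 in vehicle), as did all 8 macrophage genes (6.26 to 6.54 with OSU-CG5, 6.61 to 7.08 in vehicle). Of 8 smooth muscle genes 7 lay below 0 (9.25 to 9.52 with OSU-CG5, 9.53 to 9.79 in vehicle), and of 12 fibroblast genes 10 did (7.90 to 8.40 with OSU-CG5, 8.28 to 8.42 in vehicle). All 6 seminal vesicle genes lay below 0, with a list mean of 3.56 to 4.55 with OSU-CG5 and 3.90 to 7.91 in vehicle. Basal epithelial genes (5.80 to 6.08 with OSU-CG5, 5.92 to 6.10 in vehicle), nerve and neuroendocrine genes (5.13 to 5.37 with OSU-CG5, 5.32 to 5.48 in vehicle) and adipocyte genes (4.40 to 5.33 with OSU-CG5, 4.59 to 4.99 in vehicle) overlapped between groups. The list means of fibroblast and seminal vesicle genes overlapped as well. The part of these cells in the readings of Malat1, Neat1 or Airn was not tested.

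The genes whose brightest probe set followed a member most closely were found by Pearson's r over the 6 arrays among 9622 genes with a mean of at least log2 6. For Malat1 1418189_s_at these were Kmt2a (r = 0.995), a histone methyltransferase, the splicing factor Luc7l2 (0.994), the proliferation protein Mki67 (0.994) and 1110002L01Rik (0.991). Their differences were smaller than that of Malat1, 0.29 (SE 0.15), 0.61 (SE 0.23), 0.49 (SE 0.17) and 0.20 (SE 0.12). For Neat1 1428083_at they were Hnrnpa2b1 (0.997), Zfp280d (0.997), Srsf5 (0.994) and Ncapd3 (0.993), of which Zfp280d differed by 1.03 (SE 0.25) and Hnrnpa2b1, an RNA-binding protein, by 0.56 (SE 0.16). For Meg3 1439380_x_at they were Msl3 (0.991), Zfx (0.978), Msantd4 (0.975) and Zbtb6 (0.967), with differences of 0.11 to 0.24. Over the 5 arrays without vehicle replicate 2 the correlations were 0.980 to 0.988 for the Malat1 genes, 0.982 to 0.996 for the Neat1 genes and 0.890 to 0.979 for the Meg3 genes. All points share the same 6 arrays.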

How the data were processed

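RNA from 6 mice was measured on 1 Affymetrix array each, after Trizol extraction and labelling from 2 ug of total RNA, per the labels' protocols. The deposited values are log2 expression per probe set, made by the authors with RMA, per the submitters' processing notes. Which program ran it is not given in the sources used here. RMA puts all arrays on a shared distribution, so a broad shift in 1 direction is partly removed. Groups came from the tissue source label. On some treated arrays the free-text description ends the compound's code differently; the source label decided. Replicate numbers are in accession order and pair no mice.

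Of 45101 probe sets, 64 Affymetrix controls were left out of the fit. Names came from the platform annotation, which gives a single symbol to 34945, several to 932 and none to 9160. All 6 gene numbers matched the RefSeq table. The fit was limma's lmFit and eBayes (limma 3.58.1, R 4.3.3) on all 45037 probe sets, OSU-CG5 minus vehicle, with Benjamini-Hochberg adjustment at 0.05, and it was tested on simulated data. SE is limma's moderated standard error and SD is over 3 arrays. In gene lists each gene stands by its probe set of highest mean. Text names every member probe set, up to 4 genes per list with the smallest unadjusted p, all measured genes of both imprinted domains, and 4 genes most like Malat1, Neat1 and Meg3. Igf2r, Dlk1 and Xist beyond their brightest probe set and the further probe sets of other noncoding RNAs were named after their values were seen. The members and lists were chosen with earlier results of these data known. Alternatives were 3 other normalizations, 2 variance models, array weights, 2 filters on low values, the brightest probe set per gene and each array left out, plus 1 scaling chosen after seeing the data, on probe sets without a single symbol.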

Additional observations from a re-analysis of the deposited data

How the results depend on the processing

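Over 15 alternatives listed at the start the count of probe sets with a limma adjusted p under 0.05 stayed at 0 of those tested, except 822 with array quality weights, and it ran from 0 to 885 when single arrays were left out, with 400 without vehicle replicate 2 and 885 without vehicle replicate 3. The median member difference, 0.16, was 0.76 over the 15 members with a mean of at least log2 6 and 0.56 over the brightest probe set of each of the 6 genes, and 0.12 to 0.22 when single arrays were left out. Members above 0, 21 of 31, were 13 of 15 and 6 of 6 under those 2 alternatives, and 19 to 23 of 31 with an array left out. Members apart between groups, 8, were 2 of 6 with the brightest probe sets and 8 to 13 with an array left out. The 3 members past the descriptive threshold (unadjusted p under 0.01 and 1.5-fold) were 1 after repeated quantile normalization, cyclic loess, the filter at log2 6 or the brightest probe sets, 0 without moderation, 5 with array weights, and 1 to 7 with an array left out. Fewer members enter under the filters. An alternative chosen after seeing the data, centring each array on the median of probe sets without a single symbol, subtracts the same amount from every difference and changed most. It gave 20727 calls, a member median of -0.33 (reversed), 10 members above 0 and 9 past the descriptive threshold, and turned 11 members from above to below 0: Malat1 1427285_s_at to -0.15, Meg3 1439380_x_at to -0.14, 1452905_at to -0.11 and 1436713_s_at to -0.40, the 4 of Rian to between -0.40 and -0.32 (1452899_at -0.34, 1440001_at -0.32), Mirg 1440097_at to -0.48, and Airn 1436627_at to -0.33 and 1457337_at to -0.32. Which scaling is right was not tested. Over the 15, 22 of 31 members kept their sign (Malat1 7 of 7, Neat1 2 of 2, Airn 4 of 5, Rian 3 of 4, Meg3 5 of 11, Mirg 1 of 2). With the added alternative included 15 did (Malat1 6, Neat1 2, Airn 3, Rian 0, Meg3 3, Mirg 1). The cause of the other changes was not tested. No paired analysis was possible because the replicate numbers follow accession order and the labels give no pairing. Without detection calls, the low readings have no measured background.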

Other observations

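A few marker genes separated single mice. Adipoq, a hormone of adipocytes, read 5.17, 3.34 and 2.98 with OSU-CG5, against 3.57, 3.63 and 3.60 in vehicle. It was thus high in OSU-CG5 replicate 1. Fabp4, Lep and Retn of the same list read 6.45, 3.76 and 5.95 there, below their highest vehicle readings of 6.53, 4.37 and 6.07. Spink1, a secreted trypsin inhibitor of prostate luminal cells, read 10.55, 11.25 and 13.22 with OSU-CG5, against 10.48, 11.01 and 10.23 in vehicle. It was high in OSU-CG5 replicate 3. Krt8, Krt18 and Tmprss2, the other luminal genes with the smallest unadjusted p, read 11.25, 11.00 and 11.37 there. On OSU-CG5 replicate 1 they read 11.39, 11.11 and 11.48. Of the 9 measured luminal genes 4 lay above 0 and 5 below, with a median difference of -0.10. Kcnq1ot1 1442029_at was held within 7.48 to 7.52 on the OSU-CG5 arrays, against 6.51, 4.09 and 7.42 in vehicle.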
